A study of Caenorhabditis elegans with 2 samples.

Results

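MicroRNA genes of Caenorhabditis elegans were examined for peaks of a tagged nuclear hormone receptor, NHR-11, near their 5′ ends. The members were all 261 nuclear genes of biotype miRNA among the 46926 genes of the Ensembl WBcel235 annotation. For each, the peak of highest signal was taken among those with a summit from 1000 bp upstream to 500 bp downstream of the gene's 5′ end. Of the members, 150 lay between genes and 111 lay wholly inside a host, that is a protein-coding gene or a pseudogene on either strand. The ChIP-seq samples were 2 biological replicates of whole L2 larvae of mixed sex, of strain OP305. This strain carries the unc-119(ed3) mutation and the integrated transgene wgIs305, an insertion targeting nhr-11. ChIP-seq enriches chromatin bound by a protein with an antibody, and peaks are places where the sequenced fragments pile up over a control; the labels name eGFP-tagged NHR-11 as the target. Both replicates share 1 genotype, stage and target, so there was no contrast between groups, and without a sample of another factor no count is said to be particular to NHR-11. A peak states a position only, and in whole larvae it does not say in which cells the protein was bound.

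MicroRNAs are short RNAs cut from a hairpin precursor, first by Drosha with its partner Pasha and then by Dicer. An Argonaute protein carries the mature strand to messenger RNAs, which it finds mainly through the seed, a run of bases near the 5′ end of the miRNA, and represses. In this worm, lin-4 and let-7 were found through mutants in the heterochronic pathway, which orders the larval stages, and the let-7 relatives mir-48, mir-84 and mir-241 act at the end of the L2 stage. Nuclear hormone receptors are transcription factors of which many respond to small lipophilic ligands, and another member of that family, DAF-12, is known to regulate let-7 family genes.

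The strongest peak in any miRNA window lay at the mir-51 family, so its mature RNAs are shown first. This family is defined by its seed (bases 2 to 8) and is needed, with much overlap between members, for embryonic development. All 6 members carry the seed ACCCGUA, in capitals below, on the 5′ arm of mir-51, mir-52 and mir-53 and on the 3′ arm of mir-54, mir-55 and mir-56. Their sequences were read from the reference genome at the annotated coordinates and are written 5′ to 3′.
mir-51: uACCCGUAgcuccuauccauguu
mir-52: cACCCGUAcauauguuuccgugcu
mir-53: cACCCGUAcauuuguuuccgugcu
mir-54: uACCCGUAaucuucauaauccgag
mir-55: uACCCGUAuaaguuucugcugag
mir-56: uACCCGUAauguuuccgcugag
The let-7 family shares the seed GAGGUAG, and the 4 members with a pooled peak are shown because their signals spread over much of the list.
let-7: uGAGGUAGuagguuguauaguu
mir-48: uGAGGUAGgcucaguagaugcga
mir-84: uGAGGUAGuauguaauauuguaga
mir-241: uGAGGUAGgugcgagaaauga

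The DNA under 4 of the strongest summits is shown on the plus strand of build ce11, 101 bp centred on the pooled summit, with capitals for any match, on either strand, to the nuclear receptor hexamers that were searched for and are spelled out with their counts further on. The window shared by mir-54, mir-55, mir-56 and F09A5.15, chrX:13145136-13145236, lies in an intron of F09A5.3, has a GC content of 58.4% and holds no match.
mir-54 to mir-56: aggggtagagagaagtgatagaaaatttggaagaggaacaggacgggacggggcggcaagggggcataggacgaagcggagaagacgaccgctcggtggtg
The mir-241 window, chrV:14366676-14366776, lies outside protein-coding genes, has a GC content of 60.4% and also holds no match.
mir-241: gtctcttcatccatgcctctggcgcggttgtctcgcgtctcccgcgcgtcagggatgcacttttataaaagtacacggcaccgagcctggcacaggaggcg
The mir-48 window, chrV:14365236-14365336, has a GC content of 36.6% and holds 1 match.
mir-48: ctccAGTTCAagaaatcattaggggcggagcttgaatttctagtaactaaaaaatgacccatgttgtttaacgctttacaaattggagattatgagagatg
The window shared by mir-229 and mir-64, chrIII:2171880-2171980, lies in an intron of gcn-1 and ends in an alternating C and A repeat whose longest unbroken run is 30 bp.
mir-229: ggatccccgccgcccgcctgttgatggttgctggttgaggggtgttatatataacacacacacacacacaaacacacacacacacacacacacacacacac
At mir-52 the summit fell inside the miRNA gene itself, at base 56 of the 100-base annotated hairpin, chrIV:14034008-14034107 on the plus strand, in which capitals mark both mature arms.
mir-52: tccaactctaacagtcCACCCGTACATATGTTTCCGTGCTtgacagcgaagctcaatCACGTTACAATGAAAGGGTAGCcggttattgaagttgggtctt

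In the pooled list, which holds 13299 unthresholded peaks called on both replicates together, 70 of 261 miRNA genes had a summit in their window (26.8%), against 22.1% of the 19973 nuclear protein-coding genes treated in the same way. Both shares fell with stricter cuts, the protein-coding one faster. A peak among the 5000 strongest was found for 36 miRNA genes (13.8%, against 9.88% of protein-coding genes). A peak among the 1000 strongest was found for 19 (7.28%, against 2.56%). The thresholded list, 280 peaks that passed the authors' test of irreproducible discovery rate (IDR), reached 6 miRNA genes (2.30%, against 0.701%). Without replicate 1, the 280 strongest peaks of replicate 2 gave 2 miRNA genes (0.766%) and 0.721% of protein-coding genes. At this cut the higher share was thus found in replicate 1 and not in replicate 2. The peak shared by mir-54, mir-55, mir-56 and F09A5.15 ranked 407 in replicate 2, outside the cut. Among the 1000 strongest peaks of replicate 2 the shares were 5.75% of miRNA genes and 2.32% of protein-coding genes. No test of these shares was made, because neighbouring members share peaks and promoters. The 70 members shared 63 distinct pooled peaks, the 19 shared 15, and the 6 shared 3. With same-strand genes within 1000 bp of each other joined, 227 loci remained, of which 63 had a pooled peak (27.8%), 16 had one among the 1000 strongest (7.05%) and 4 had a thresholded one (1.76%).

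Other short RNA classes were measured with the same window. Among the 1000 strongest pooled peaks, 23.9% of 612 tRNA genes, 19.1% of 346 snoRNA genes and 12.4% of 129 snRNA genes had a summit. The share was 4.40% for 7764 genes of biotype ncRNA, 2.58% for 194 lincRNA genes and 0.384% for 15363 piRNA genes. MicroRNA genes, at 7.28%, stood between the ncRNA and snRNA genes at that cut. For any pooled peak and for the 5000 strongest they were just below the ncRNA genes, with 70 of 261 against 2176 of 7764 and 13.8% against 14.6%, and among the 1000 strongest of replicate 1 they were just above the snRNA genes, with 8.05% against 7.75%. Of the 63 distinct peaks in miRNA windows, 3 had a summit within 500 bp of a tRNA, snoRNA, snRNA or rRNA gene (4.76%), against 563 of all 13271 nuclear pooled peaks (4.24%). Of the 15 among the 1000 strongest none did, and of the 973 nuclear peaks among the 1000 strongest 185 did (19.0%).

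**Figure D1:**
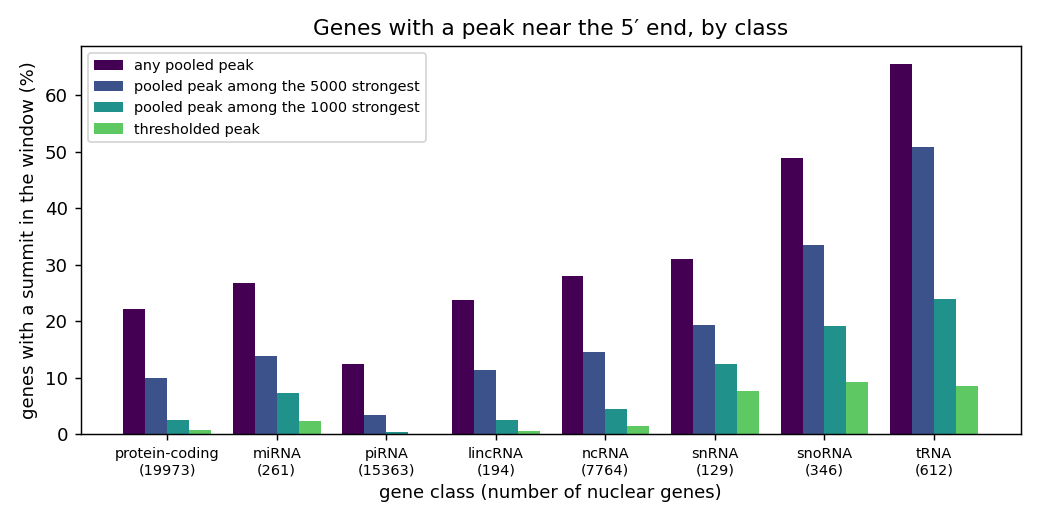
The bars give the percentage of nuclear genes of each class with a pooled summit in the window, for any peak, the 5000 strongest, the 1000 strongest and the thresholded list, and the number of genes of each class stands under its name. The miRNA bars (26.8%, 13.8%, 7.28% and 2.30%) are above the protein-coding ones (22.1%, 9.88%, 2.56% and 0.701%) and below those of tRNA and snoRNA genes.

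The mir-51 family held 5 of its 6 members among the 1000 strongest peaks, and 4 of them were thresholded. The genes mir-54, mir-55 and mir-56, a cluster on the X chromosome in an intron of F09A5.3 on the opposite strand, shared the peak of highest signal in any miRNA window, chrX:13144971-13145400. Its signal, the caller's own value with a scaling not given in the sources used here, was 38.1 in the pooled list (rank 101), 26.8 in replicate 1 (rank 78) and 11.7 in replicate 2 (rank 407). The pooled summit lay 92 bp upstream of mir-54, 262 bp upstream of mir-55 and 399 bp upstream of mir-56. A lesser pooled summit of signal 22.5 lay farther upstream of mir-54 and overlapped the first peak. The gene F09A5.15, which the annotation calls mir-55b and which lies on the other strand across mir-55, had the same peak 356 bp downstream of its 5′ end. These 4 calls are therefore 1 peak, and it was strong in both replicates.

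At mir-52 the pooled signal was 29.4 (rank 224), that of replicate 1 was 24.8 (rank 95) and that of replicate 2 was 7.48 (rank 2440). The replicate 2 summit of highest signal lay 195 bp upstream of the 5′ end, whereas those of the pooled list and of replicate 1 lay 55 bp and 109 bp downstream. No protein-coding 5′ end was closer to the pooled summit than 9717 bp, that of Y37A1B.7. The mir-52 peak was thus far from protein-coding starts and much stronger in replicate 1. At mir-51 the pooled signal was 24.1 (rank 415), with 16.6 in replicate 1 (rank 359) and 7.21 in replicate 2 (rank 2796). Its pooled summit lay 760 bp upstream, while the strongest replicate peaks lay 93 bp and 111 bp upstream and did not overlap the pooled one. The remaining member, mir-53, had no pooled peak and no replicate 2 peak, and 1 replicate 1 peak of signal 7.48 (rank 5845).

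**Figure D2:**
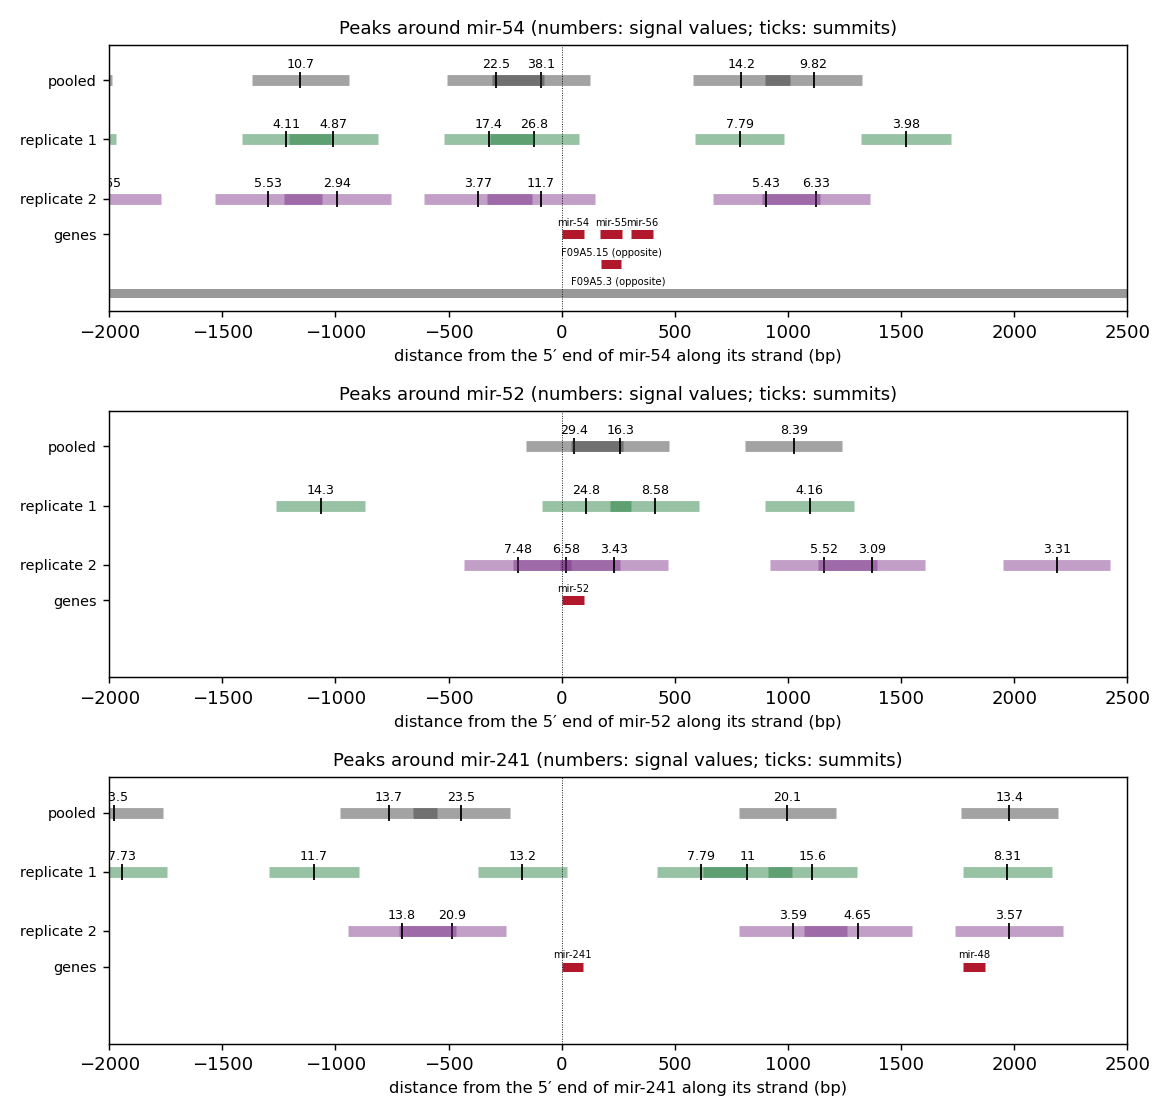
The horizontal axis of each panel is the distance in bp from the 5′ end of mir-54, mir-52 or mir-241 along its strand, bars are peaks in the pooled and replicate lists, ticks are summits and numbers are signal values. Red bars are miRNA genes and the grey bar is the host gene F09A5.3, other non-coding genes are not drawn, and the pooled peaks of signal 38.1, 29.4 and 23.5 lie just upstream of mir-54, over mir-52 and upstream of mir-241.

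The remaining thresholded member was mir-354, inside the ribosomal protein gene rps-20 on chromosome I. Its peak, at chrI:14469124-14469553, had a signal of 37.5 in the pooled list (rank 105), 21.8 in replicate 1 (rank 137) and 15.1 in replicate 2 (rank 166), so the replicates gave it similar ranks. The summit lay 848 bp upstream of mir-354 and 161 bp upstream of ekl-4, and fell in the windows of both ekl-4 and rps-20. The thresholded list ended at a signal of 27.4. The member just inside was mir-52, at 29.4, and the member just outside was mir-4929, at 25.6. At the cut of 280 peaks, the count of 6 was reached with replicate 1 alone and not with replicate 2 alone. In the 280 strongest peaks of replicate 2 alone, 2 members were found, mir-354 and mir-241, of which only mir-354 was thresholded, whereas the 280 strongest of replicate 1 alone gave 6, and these were the thresholded members.

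Among genes of developmental timing, 5 of 9 had a pooled peak and 2, mir-241 and mir-48, had one among the 1000 strongest. Both are let-7 relatives and lie 1774 bp apart, 5′ end to 5′ end, on chromosome V. At mir-241 the signal was 23.5 in the pooled list (rank 462), 13.2 in replicate 1 (rank 781) and 20.9 in replicate 2 (rank 70), the highest of any miRNA gene in that replicate. At mir-48 it was 20.1 (rank 754), 15.6 (rank 437) and 4.65 (rank 10408). These neighbours thus had opposite orders in the replicates, with mir-241 higher in replicate 2 and mir-48 higher in replicate 1. The mir-241 summit lay 443 bp upstream in the pooled list, 174 bp upstream in replicate 1 and 483 bp upstream in replicate 2.

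The other timing genes had weaker peaks. At lin-4, which represses lin-14 and lin-28 and lies inside F59G1.4, the pooled signal was 10.7 (rank 6437), with 6.36 in replicate 1 (rank 9518) and 11.6 in replicate 2 (rank 424). At mir-84 the values were 13.3 (rank 3064), 6.52 and 5.88. At let-7 itself they were 10.2 (rank 7652), 5.38 and 5.82, with the pooled summit 476 bp upstream of the primary transcript, which is annotated as the gene. The peaks of mir-84 and let-7 were thus unremarkable in all lists, and lin-4 was strong in replicate 2 alone. No pooled peak was found at mir-237, mir-793, mir-794 or mir-795, and mir-795 had none in either replicate.

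In the group of mir-63 to mir-66 with mir-229, which share the seed AUGACAC, all 5 genes had a pooled peak and 2 had one among the 1000 strongest. The genes mir-229 and mir-64 shared the peak whose CA repeat is shown above, with a signal of 23.5 (rank 460), 13.8 in replicate 1 (rank 672) and 7.90 in replicate 2 (rank 1954). Its summit lay 522 bp upstream of mir-229 and 918 bp upstream of mir-64. How well reads can be placed in that repeat was not tested. The next genes of that cluster, mir-65 and mir-66, shared a peak of 9.24 (rank 10060), and mir-63, on another chromosome, had one of 10.6 (rank 6689).

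In the mir-58 family, abundant miRNAs related to bantam of flies, 4 of 5 members had a pooled peak and none was among the 1000 strongest. The gene Y73B6A.17, which the annotation calls mir-58c, was not in that list and had no pooled peak. The gene mir-58.1, inside phkb-1, had a signal of 16.9 in the pooled list (rank 1348), 16.5 in replicate 1 (rank 367) and 12.7 in replicate 2 (rank 290). Its replicates ranked it higher than the pooled list did, and their peaks did not overlap, with summits 235 bp upstream in replicate 1 and 453 bp downstream in replicate 2. The signal of mir-58.2 was 16.4 (rank 1476), that of mir-82 was 9.15 (rank 10392) and that of mir-80 was 8.47 (rank 12769).

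Of 7 genes with known parts in stress, ageing and nutrition, 5 had a pooled peak, 4 of them among the 5000 strongest and none among the 1000 strongest. The gene mir-71, which promotes long life and lies inside ppfr-1, had a signal of 14.9 (rank 2072), 9.78 in replicate 1 (rank 2365) and 12.9 in replicate 2 (rank 282). The divergent pair mir-239.1 and mir-239.2 shared a pooled peak of 14.1 (rank 2502) that lay within 500 bp of the snoRNA gene C34E11.20. At mir-34, a stress gene of the pathway that p53 controls in mammals, the pooled signal was 13.4 (rank 2981), with 8.002 in replicate 1 (rank 4691) and 2.82 in replicate 2 (rank 25814). So mir-71 stood high in replicate 2 and mir-34 close to its foot. The signal of mir-238 was 10.8 (rank 6196), and mir-235 and mir-246 had no peak in any list.

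The 3 neuronal genes with a pooled peak, of 5, had low signals. They were mir-791, of carbon dioxide sensing neurons, at 12.1 (rank 4201), lsy-6, which sets the left and right fates of a pair of taste neurons, at 9.41 (rank 9576), and mir-234, at 8.40 (rank 13080). No pooled peak was found at mir-124 or mir-273. The mir-35 family, which acts in the embryo and shares the seed CACCGGG, had 0 of 8 members with a pooled peak. A single replicate 2 peak of signal 3.88 (rank 15477) fell in the windows of 7 of them, mir-35 to mir-41, and a replicate 1 peak of rank 23546 in those of mir-40 and mir-41. The muscle gene mir-1 and the pair mir-240 and mir-786, of which mir-786 acts in the gut to time defecation, had no peak in any list.

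The 213 members in none of these groups had a pooled peak in 43 cases (20.2%) and one among the 1000 strongest in 10 (4.69%). The strongest were F09A5.15 and mir-354, described above, then mir-4929 and mir-253. At mir-4929, inside E01G4.3 on chromosome II, the signal was 25.6 (rank 346), 16.1 in replicate 1 (rank 399) and 10.8 in replicate 2 (rank 566), and the summit lay 122 bp upstream of the 5′ end of E01G4.3. At mir-253, inside F44E7.5 on chromosome V, it was 23.003 (rank 497), 16.1 (rank 403) and 7.45 (rank 2484), 413 bp downstream of the miRNA gene's 5′ end. After these came mir-2, inside ppfr-1, at 22.6 (rank 528) and mir-1824 at 22.4 (rank 543), the latter with no peak in replicate 2. The others were mir-8196.1 at 21.8, mir-4936 at 20.7, mir-5551 at 19.6 and mir-5549 at 18.9.

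**Figure D3:**
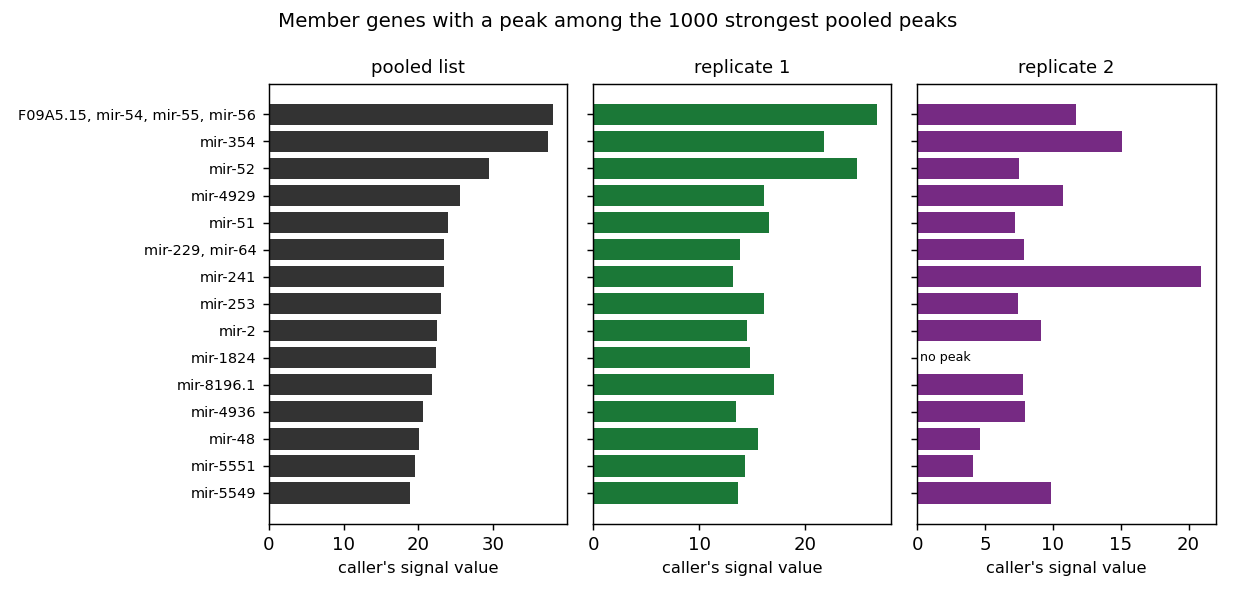
The bars give the signal value of the strongest peak in the window of each member, or of each set of members that shares a peak, among the 1000 strongest pooled peaks, in the pooled list and in both replicates, each with an axis from 0. The peak shared by mir-54, mir-55, mir-56 and F09A5.15 is highest in the pooled list and in replicate 1 (38.1 and 26.8), and mir-241 is highest in replicate 2 (20.9).

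A split by name, chosen after the values were seen, showed a further difference. Of the 117 members named lin-4, let-7, lsy-6 or mir-1 to mir-392 46 had a pooled peak (39.3%) and 12 had one among the 1000 strongest (10.3%). Of the 144 named mir-784 and higher or by a sequence name, 24 had a pooled peak (16.7%) and 7 had one among the 1000 strongest (4.86%). For these later genes the share with any pooled peak was below the protein-coding background of 22.1%, and the share among the 1000 strongest was above that of 2.56%. How strongly either set is expressed in L2 larvae was not tested.

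Members inside a host and those between genes were compared by gene and by locus, without a test. Between genes, 37 of 150 had a pooled peak (24.7%), 16 had one among the 5000 strongest (10.7%), 8 had one among the 1000 strongest (5.33%) and 1, mir-52, a thresholded one. Inside a host the counts were 33 of 111 (29.7%), 20 (18.0%), 11 (9.91%) and 5. The shared mir-54 peak makes up 4 of the last 5. Counted by locus, the share with any pooled peak was the same, 36 of 130 between genes (27.7%) and 27 of 97 inside a host (27.8%), and 8 of each had one among the 1000 strongest (6.15% and 8.25%). Among members with a peak, counted by gene, the median signal was 10.8 between genes and 12.7 inside a host. Shared peaks count more than once in these medians. The 37 members between genes had 35 distinct peaks, and the 33 inside a host had 28. On the host's own strand 26 of 78 had a pooled peak (33.3%), and on the opposite strand 7 of 33 (21.2%). By locus these were 22 of 73 and 5 of 24. Among the 1000 strongest the order was the reverse, with 7 of 78 (8.97%) and 4 of 33 (12.1%). The latter include mir-54, mir-55 and mir-56, which share 1 peak. None of the 5 members inside a pseudogene had one. Of 17 members inside a longer non-coding RNA gene, 3 had one, mir-253, lin-4 and mir-252, which also lie in a protein-coding host. The 12 without such a host, which lie at only 4 loci, had none.

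The peak of a hosted member was seldom the peak at the start of its host. The 106 members inside protein-coding genes lay in 90 distinct hosts, of which 31 had a pooled peak at their own 5′ end. Of all protein-coding genes, 22.1% had one at the gene's 5′ end and 24.7% at any annotated 5′ end. For 33 of these members there was a pooled peak in the miRNA window, and for 7 of the 33 it was the strongest peak at the host's start, namely mir-354 in rps-20, mir-4929 in E01G4.3, mir-1824 in Y87G2A.18, mir-1830 in paic-1, mir-8192 in flcn-1, mir-62 in ugt-50 and mir-8205 in unc-59. The peak of mir-82 also lay in the window of its host gid-2, which had a stronger one (rank 3150). How many members lie near enough to their host's start to share its peak was not counted. For all members, 20 of the 63 distinct peaks also lay in the window of a protein-coding gene, and 40 lay neither there nor near a tRNA, snoRNA, snRNA or rRNA gene. Of those 63 summits, 33 were outside protein-coding genes, 24 in introns, 3 in coding exons and 3 in a non-coding part of an exon. For the 15 peaks among the 1000 strongest, 10 were outside and 5 in introns. Apart from nearness to a short RNA gene, these placements were not counted for all nuclear pooled peaks. They are therefore not shown to be particular to miRNA windows.

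The summit was upstream of the 5′ end for 45 of the 70 members with a pooled peak, with a median position of 201.5 bp upstream, and inside the annotated gene for 6. The window holds 1000 bp upstream and only 500 bp downstream, so most summits would lie upstream even if evenly placed. This count and median therefore show no upstream placement. In bins of 250 bp, summits were most frequent in the 2 bins from 500 bp upstream to the 5′ end, with 7.28 per 100 miRNA genes in each. Protein-coding genes had 6.22 per 100 in the last 250 bp upstream and 2.90 from 250 to 500 bp downstream. In that downstream bin miRNA genes had 6.90, so their summits were less confined to the upstream side. From 500 to 750 bp downstream they still had 6.13, against 3.15 for protein-coding genes. The first 250 bp downstream held only 12 miRNA summits, against 19 in each of the 2 highest bins. MicroRNA genes had the higher value in every bin out to 2000 bp except that from 1750 to 1500 bp upstream (2.299 against 3.149). Their higher rate was therefore not confined to the 5′ end. A miRNA gene is annotated by its hairpin in most cases, so its 5′ end is not where transcription starts, and a summit in a cluster is counted once for each gene.

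**Figure D4:**
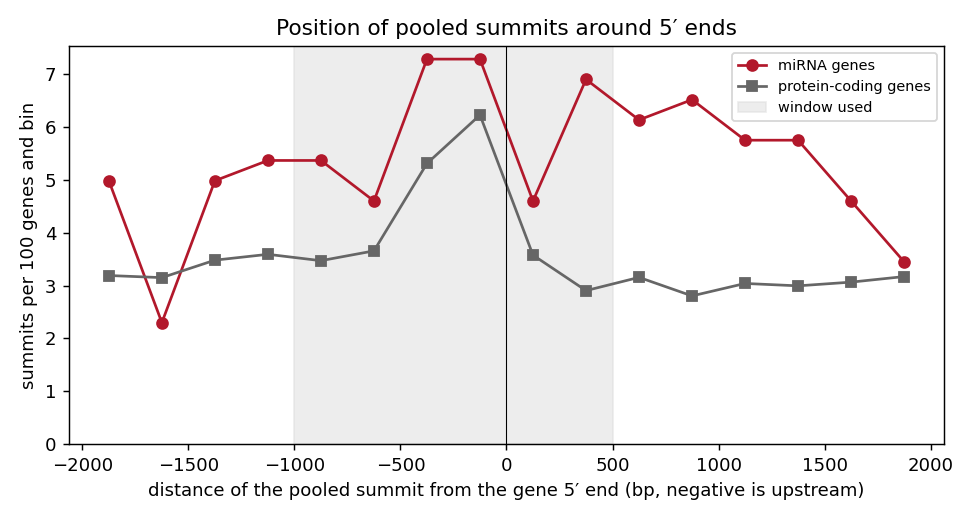
The horizontal axis is the distance of pooled summits from the gene 5′ end in bins of 250 bp (negative is upstream), and the vertical axis is the number of summits per 100 genes in each bin, for miRNA genes (red circles) and protein-coding genes (grey squares), with the window used in grey. Both curves are highest just upstream of the 5′ end (7.28 and 6.22), and only the protein-coding curve falls to 2.90 from 250 to 500 bp downstream. The miRNA curve dips just downstream of the 5′ end and is high again from 500 to 750 bp downstream (6.13, against 3.15).

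By chromosome, any pooled peak was found for 13 of 27 members on chromosome III (48.1%, against 27.4% of protein-coding genes there). It was found for 9 of 33 on I (27.3%, against 25.5%), 7 of 28 on V (against 18.6%) and 19 of 74 on X (25.7%, against 23.4%). It was found for 11 of 49 on II (22.4%, against 21.8%) and 11 of 50 on IV (22.0%, against 19.7%). Members on III thus had peaks most often, and these 13 members, among them the cluster in gcn-1, shared 11 distinct peaks.

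In replicate 1, 114 members had a peak (43.7%, against 37.0% of protein-coding genes), from a list of 25831 peaks. In replicate 2, 106 had one (40.6%, against 36.2%), from 27015 peaks. In both, 64 had a peak (24.5%, against 17.8%), and the strongest peaks overlapped for 38 of the 64. How often they overlapped for protein-coding genes was not counted. Of the 70 members with a pooled peak, 49 had a peak in both replicates, 17 in replicate 1 only, 3 in replicate 2 only and 1, mir-8211, in neither. Without a pooled peak, 15 members had one in both replicates, 72 in a single replicate, and 104 had none in any of the 3 lists.

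The pooled peaks were overlapped more often by the strongest peak of replicate 1 than by that of replicate 2, and most often where they were strong. For 60 of the 70 members the strongest replicate 1 peak overlapped the pooled peak, and for 39 the strongest replicate 2 peak did. For the 19 members among the 1000 strongest these counts were 18, all but mir-51, and 17, all but mir-51 and mir-1824. The pooled peaks were called on the same replicates, so these overlaps are not independent support. They were not counted in protein-coding windows. Among the 1000 strongest of replicate 1 there were 21 members (8.05%, against 2.34%), and of replicate 2 there were 15 (5.75%, against 2.32%). The 10 among the 1000 strongest of both (3.83%, against 0.836%) were mir-54, mir-55, mir-56, F09A5.15, mir-354, mir-4929, mir-241, mir-5549, mir-58.1 and mir-239.2. Of these, mir-54, mir-55, mir-56 and F09A5.15 share a single peak. At mir-58.1 and mir-239.2 the strongest peaks of the replicates did not overlap, so there the replicates did not mark the same place. Besides mir-241 and mir-354, the highest signals in replicate 2 were at mir-71 (12.9), mir-58.1 (12.7) and the mir-54 cluster (11.7).

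Over 56 distinct pairs of strongest peaks, the signals in the replicates had a Spearman rho of 0.52, and over the 33 pairs that overlap it was 0.46. Over 3112 pairs in protein-coding windows it was 0.27. These are descriptions, since all points share the same libraries. The members with the farthest ranks, as percentages of each list, were mir-34 (77.4 points apart), mir-234 (71.6) and mir-356.1 (70.2). The first was higher in replicate 1 and the other two in replicate 2.

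**Figure D5:**
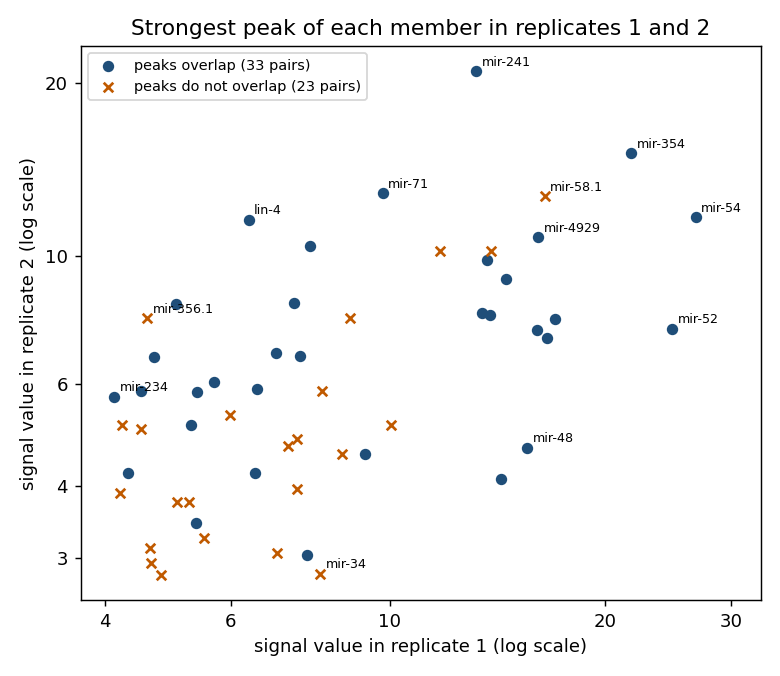
Each point is a distinct pair of strongest peaks of members with a peak in both replicates, with the signal in replicate 1 on the horizontal and in replicate 2 on the vertical axis, both on log scales, for 33 pairs that overlap (circles) and 23 that do not (crosses). The peaks of mir-54 (26.8 and 11.7) and mir-354 (21.8 and 15.1) are high in both, mir-241 (13.2 and 20.9) leads in replicate 2, and mir-52 (24.8 and 7.48) and mir-48 (15.6 and 4.65) are higher in replicate 1.

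The signal of members with a peak was close to that of other genes at the centre and higher at the top. The median over the 70 members was 11.9, with quartiles of 9.41 and 19.4. Over their 63 distinct peaks, with shared ones counted once, it was 10.8, with quartiles of 9.34 and 16.7. For the 4422 protein-coding genes with a pooled peak the median was 11.1, with quartiles of 9.51 and 14.3, and for all 13271 nuclear pooled peaks it was 10.6. The GC content of the 101 bp at the summit had a median of 39.6% for the 63 peaks and 36.6% for all nuclear peaks, and of 45.5% and 43.6% among the 1000 strongest.

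Nuclear receptor half-sites, searched on both strands, were few. The hexamer AGGTCA was in 5 of the 63 summit windows of 101 bp (7.94%) and in 2.99% of all 13271 nuclear ones. For AAGTCA the counts were 4 (6.35%) and 4.56%, and for AGTTCA 3 (4.76%) and 6.18%. In the 15 windows among the 1000 strongest, AGGTCA was in none, and AAGTCA and AGTTCA in 1 each (6.67%), against 2.57%, 3.60% and 5.55% of all 973. In windows from 250 bp before to 50 bp after the 5′ end of all 261 members the shares were 6.90%, 10.3% and 18.0%, and at protein-coding genes 8.29%, 13.3% and 20.4%. Over all summits AGGTCA was thus the more frequent at members, on 5 windows, but not in the strongest peaks or in the promoter windows. The absence of these letters says nothing of whether NHR-11 binds there.

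Protein-coding genes of the pathway were read at all their annotated 5′ ends. Read so, 24.7% of all protein-coding genes had a pooled peak, 11.2% had one among the 5000 strongest and 2.95% had one among the 1000 strongest. Of 18 genes for making miRNAs and for their action, 11 had a pooled peak (9 at the gene's own 5′ end, the rule used for members), 8 had one among the 5000 strongest and 4 had one among the 1000 strongest. These 4 were nhl-2, a cofactor of the silencing complex (26.7, rank 300), ain-1, its GW182-like subunit (24.9, rank 375), cgh-1, a helicase of P bodies (23.7, rank 445), and vig-1, a protein of the complex (22.3, rank 556). The peak of ain-1 was strong in both replicates, with signals of 19.96 (rank 183) and 27.7 (rank 37). Among the enzymes that cut the hairpin, drsh-1 and dcr-1 had no pooled peak, and pash-1, the partner of Drosha, had one of 14.9 (rank 2049). The Argonaute genes alg-1, alg-2 and alg-5 had signals of 9.87, 11.5 and 16.9, so all 3 had weaker peaks than the 4 genes named first.

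Of 14 regulators and targets of the heterochronic miRNAs, 10 had a pooled peak and 5 had one among the 1000 strongest. At the gene's own 5′ end 7 of the 14 had a pooled peak, and daf-12, with 9 annotated 5′ ends, and lin-42, with 5, had none there. The highest were mab-10, a partner of LIN-29 (37.2, rank 109), and lin-42, the worm's Period homologue, which restrains miRNA transcription (35.1, rank 137). Then came lin-66 (26.1, rank 333), daf-12, the receptor named above (21.1, rank 640), and lin-14, the first known target of lin-4 (19.1, rank 890). The let-7 targets lin-41 and hbl-1 had weaker peaks, of 10.7 and 10.05. The signals of let-7 (10.2) and lin-4 (10.7), each read in 1 window, were near those of lin-41 and hbl-1 and below those of lin-14 and mab-10, all of which had their peak at the gene's own 5′ end.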

How the data were processed

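Peak lists of 2 biological replicates on build ce11 were used: 1 list per replicate, 1 for both together and 1 thresholded. Per the text files deposited beside them, the authors called these peaks against a control alignment. The unthresholded lists were input for the irreproducible discovery rate procedure, which gave the thresholded one. The 280 thresholded peaks were the 280 strongest of the pooled list. Aligner, peak caller and versions: not given in the sources used here. Each peak's signal is the value the authors deposited, with unknown scaling, and served only for ranks within a list. The deposited summit offset, another column of the authors' lists, gave the summit. The lists hold no read counts, so the depth of each sample is unknown and no interval is given.

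Coordinates are 1-based. Genes came from Ensembl release 115, symbols and genome sequence from RefSeq of the same build. All 261 gene IDs matched a symbol. The ce10 lists were not used. Ranks include 28 mitochondrial peaks in the pooled list. Members of a locus lie within 1000 bp on 1 strand. Python 3.11.15, pandas 2.3.3, numpy 2.4.6 and scipy 1.17.1 were used, and figures were drawn with matplotlib 3.10.9. The assignment of summits was tested on simulated data.

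Named were members with a thresholded peak, the 12 of highest pooled signal, the 5 of highest signal in each replicate, the 3 whose ranks differed most, and all members of the role groups (up to 4 with values). Genes beyond that rule were named after their values were seen. The members, lists and role groups were chosen with earlier results of these data known. With 1 group, no test between groups was possible. Alternatives were the window, the assignment by any base, loci counted once, the number of peaks, the definition of a host, each replicate left out and, chosen after the data were seen, leaving out peaks near other short RNA genes.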

Additional observations from a re-analysis of the deposited data

How the results depend on the processing

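Of 41 alternatives, 37 stayed within 1.5 times of the reported count or median and 4 moved. The count among the 1000 strongest peaks went from 19 to 12 with the 500 strongest. The count with a peak in both replicates went from 64 to 37 with the 13000 strongest of each replicate list and to 21 with the 5000 strongest. Protein-coding shares were not counted at the 500 strongest or at these replicate cuts, and a shorter list cannot raise a count. The thresholded count of 6 ranged from 2 to 6 when a replicate was left out, by taking the same number of the strongest peaks of the other replicate, which is not a repeat of the thresholding. As shares these were 0.766% of members against 0.721% of protein-coding genes without replicate 1, and 2.30% against 0.696% without replicate 2. A comparison of counts does not show whether the members stayed the same. Among the 1000 strongest, 15 members were found without replicate 1, and only 8 of them were among the 19 reported. Without replicate 2 there were 21, which held all 19. Leaving out peaks within 500 bp of a tRNA, snoRNA, snRNA or rRNA gene, chosen after the data were seen, gave 68, 35, 19 and 6 members in place of 70, 36, 19 and 6. Windows from 500 or 2000 bp upstream gave 57 and 93 members with any pooled peak, against protein-coding shares of 16.6% and 30.8%. No paired analysis was possible because there was 1 group. The signal scale and the depth are unknown, and with 2 replicates no spread beyond the values given could be stated.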
